A study of Mus musculus with 22 samples.

Results

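The genes described here are 47 mouse genes of the Wnt pathway, measured in fibroblasts sorted from back skin under which a hydrogel expander had been placed and from skin that had surgery alone. They were taken from a table of 55414 genes by matching the table's Ensembl identifiers to 47 listed symbols, and all 47 were found. By role they are 6 Wnt ligands, 2 genes of ligand release, 8 Frizzled receptors, 2 co-receptors, 3 other Wnt receptors, 9 secreted inhibitors, 2 inhibitors at the membrane, 7 genes of the R-spondin axis, 3 intracellular feedback inhibitors, and 5 genes for β-catenin and the TCF and LEF factors. After a filter on low counts 45 of the 47 could be tested. Dkk1 did not pass, with at most 6 counts in a library, and neither did Rnf43, which was listed at 0 in every library.

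Wnt proteins are lipid-modified secreted signals. Porcn attaches the lipid and Wls carries the ligand to the cell surface, where it binds a Frizzled receptor, with Lrp5 or Lrp6 as co-receptor in the branch that stabilises β-catenin, or with Ror or Ryk receptors in other branches. Secreted proteins of the Sfrp, Dkk, Wif and Notum families restrain the signal outside the cell, R-spondins with their Lgr receptors strengthen it by keeping Frizzled proteins at the surface, and TCF and LEF factors bring β-catenin to target genes, among them the feedback inhibitors Axin2, Nkd1 and Notum. In skin, Wnt signals between dermis and epidermis are known for their part in hair follicle formation and growth, and dermal fibroblasts are a source of both ligands and inhibitors.

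The libraries came from mice that all had the same operation: an incision in the back skin near the tail and a path made under the skin to the neck. EXP mice then received an expander hydrogel near the neck, held by stitches, and CTRL mice received none; the comparison therefore asks how fibroblasts of expanded skin differ from fibroblasts of operated skin. Cells were sorted without CD31, CD45, CD117 and EpCAM and with CD34 and PDGFRα, and RNA was sequenced on days 1, 2 and 4, with 4 CTRL and 5 EXP libraries on day 1, 3 and 3 on day 2, and 4 and 3 on day 4. The labels used here give no strain, sex, age or genotype, and they number the libraries without saying that each came from a separate mouse, so the p-values measure the spread between these libraries.

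Total counts ran from 21461294 to 30210204 per library. A floor of 3 counts, set here for values near 0, corresponds to 0.0993 to 0.140 CPM, a level relative to the library's own total. Levels below are CPM after TMM scaling, which corrects totals for differences in RNA composition. The sort was visible in the RNA: Pdgfra and Cd34 were abundant, while the highest library reached 3.68 CPM for Pecam1 (CD31), 0.243 for Ptprc (CD45), 0.699 for Kit (CD117) and 2.09 for Epcam. Of the sorted-for markers, Cd34 was lower in EXP on day 1 (log2 fold change -1.74, edgeR adjusted p = 0.000810) and day 2 (-2.07, 0.00379), and Pdgfra was higher on all 3 days (0.84, 1.71 and 0.79, adjusted p = 0.0154, 0.00134 and 0.0456).

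The libraries also fell into a pattern that the labels do not name. In a set of 192 genes, deviations from the group means followed those of Rnf10 (correlation above 0.9). The mean level of the set was 4.83 to 5.48 log2 CPM in 7 high libraries and 2.47 to 4.13 in the other 15. The line was drawn at the widest gap. The high libraries were CTRL 1, 2 and 3 and EXP 1 and 2 of day 1 and CTRL 3 and 4 of day 4. On day 4 both high libraries were CTRL and no EXP library was high, so the members called on days 1 and 4 are also given without the high-side libraries. That fit held 1 CTRL and 3 EXP libraries on day 1 and 2 CTRL and 3 EXP libraries on day 4. A call lost in it, above all on day 1, cannot separate the split from the small number of libraries.

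Among the 45 tested members, 12 passed the test on day 1 (26.7%, against 28.6% of all 17554 tested genes), 14 on day 2 (31.1%, against 13.4%) and 19 on day 4 (42.2%, against 22.5%). The test is edgeR's quasi-likelihood F-test with Benjamini-Hochberg adjustment over all tested genes, called at an adjusted p under 0.05. On day 1, 3 members rose and 9 fell (13.9% and 14.7% of all genes); on day 2, 8 rose and 6 fell (7.72% and 5.71%); on day 4, 6 rose and 13 fell (12.8% and 9.66%). The share of members called on day 1 was thus near that of all genes, and the shares on days 2 and 4 lay above it. The members were chosen with earlier results of these data known, so these shares are a description and not a test. Scaling by library totals alone moved the median log2 fold change of all genes from 0.02, 0.02 and 0.03 to 0.21, 0.49 and 0.36 on the 3 days, and the members then split into 4 higher and 6 lower, 10 and 3, and 9 and 10. In that scaling 66.2%, 90.5% and 80.8% of all called genes were higher, against 48.7%, 57.5% and 57% with TMM. The members' own median log2 fold change was -0.38, -0.24 and -0.44 on days 1, 2 and 4.

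**Figure D1:**
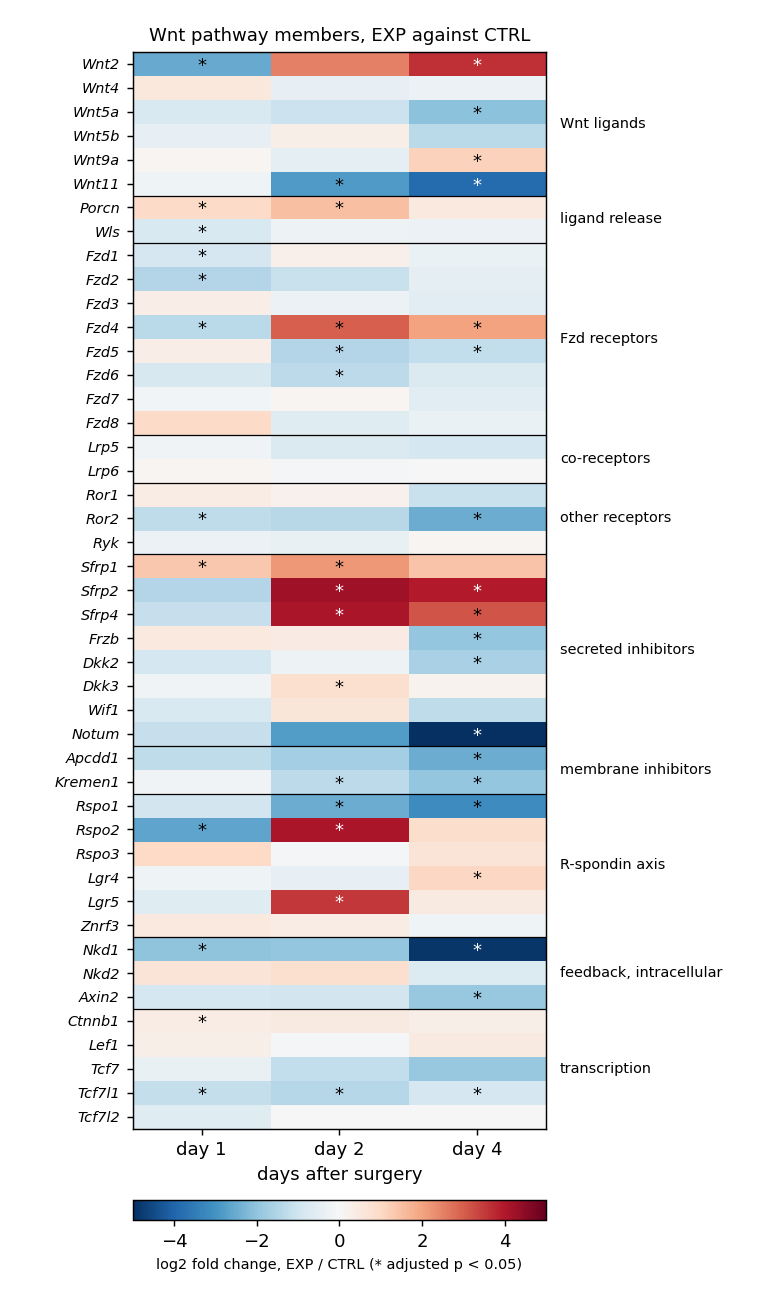
Log2 fold change of EXP against CTRL for the 45 tested members (one line each, grouped by role) on days 1, 2 and 4; red is higher and blue lower in EXP, and a star marks an edgeR adjusted p under 0.05. Sfrp2, Sfrp4, Rspo2 and Lgr5 are among the deepest red on day 2, and Nkd1 and Notum are the deepest blue on day 4.

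All EXP libraries lay above all CTRL libraries for 3 members on day 1, 10 on day 2 and 5 on day 4 (11.7%, 20.9% and 13.8% of all tested genes), and below them for 6, 15 and 17 (12.2%, 18.4% and 11.8%). Tcf7l1 was the single member that fell on all 3 days (1.78% of all genes did), and no member rose on all 3 (2.50% did), with the nearest, Porcn, called on days 1 and 2. Wnt11, Fzd5, Kremen1, Rspo1 and Tcf7l1 fell on both days 2 and 4 (3.11% of all genes did), and Fzd4, Sfrp2 and Sfrp4 rose on both (5.05% did). On at least 1 day 29 members were called (44.4% of all genes), and 16 on none (55.6% of all genes): Wnt4, Wnt5b, Fzd3, Fzd7, Fzd8, Lrp5, Lrp6, Ror1, Ryk, Wif1, Rspo3, Znrf3, Nkd2, Lef1, Tcf7 and Tcf7l2.

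The ligands were led by Wnt5a, a ligand best known for signalling without β-catenin. Per kilobase of exon, Wnt5a made up 62.4% ± 5.5 (SD, n = 4) of the summed level of the 6 ligands in day 1 CTRL, 71.2% ± 4.2 (n = 3) in day 2 CTRL and 62.3% ± 17.6 (n = 4) in day 4 CTRL. In EXP the share was 56.6% ± 16.5 (n = 5), 65.0% ± 10.7 (n = 3) and 26.6% ± 19.0 (n = 3). Wnt2, a ligand of the β-catenin branch, took 2.58% ± 1.25 of the sum in day 4 CTRL and 40.6% ± 18.9 in day 4 EXP. In bulk RNA, fewer cells of a kind and less RNA per cell cannot be told apart, here or in what follows.

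**Figure D2:**
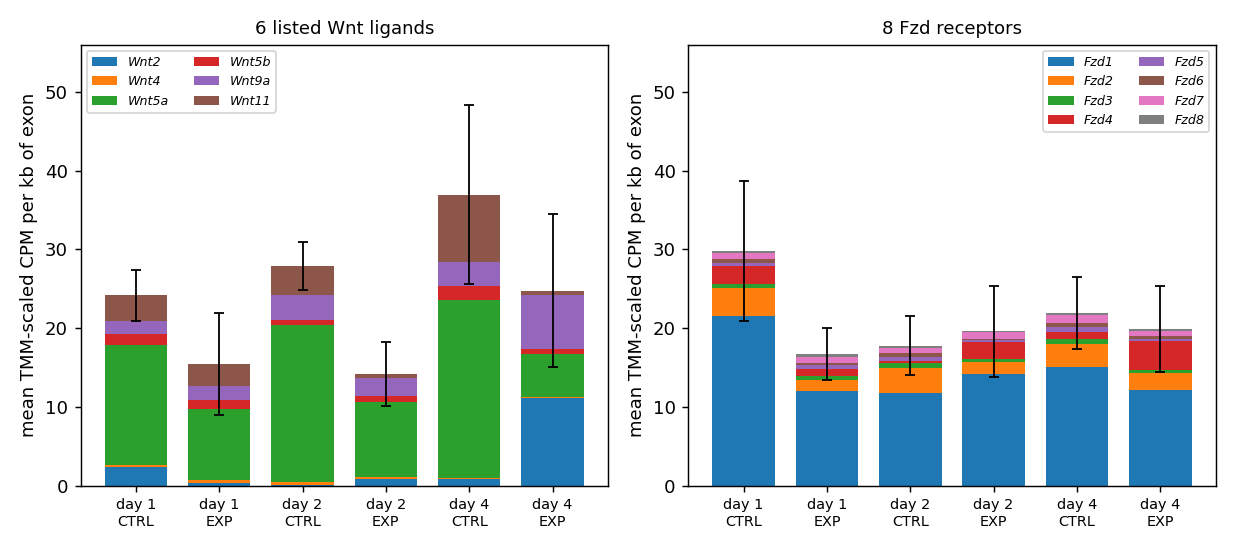
Mean TMM-scaled CPM per kilobase of exon, stacked for the 6 ligands (left) and the 8 Frizzled receptors (right) in the 6 groups; the error bars are the SD of the summed level over the libraries of a group. Wnt5a fills most of each ligand column except that of day 4 EXP, where Wnt2 and Wnt9a take up 11.1 and 6.80 CPM per kilobase, and Fzd1 fills most of every receptor column.

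Wnt5a stood at 164, 158, 273 and 111 CPM in the 4 CTRL libraries of day 4 and at 45.2, 13.5 and 69.8 CPM in the 3 EXP libraries. Every EXP library was below every CTRL library, and the CTRL library highest for Wnt5a was on the high side of the split. The gene fell by 2.05 ± 0.52 (SE) on the log2 scale (adjusted p = 0.00997), and the call was lost without the high-side libraries (-1.92, adjusted p = 0.0633) and with day 4 fitted alone (-2.07, adjusted p = 0.0552). On day 1 the log2 difference was -0.75 ± 0.42 (adjusted p = 0.196) with overlapping groups, and on day 2 it was -1.07 ± 0.52 (adjusted p = 0.189) with groups that did not overlap. Wnt5a shares exon bases with a neighbouring gene model, as do 10 other members, and the counting used is not given in the sources used here.

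Wnt11, another ligand mostly linked to β-catenin-independent signalling, fell on days 2 and 4. On day 2 the CTRL libraries held 13.2, 20.2 and 13.0 CPM and the EXP libraries 0.264, 3.07 and 3.19. The lowest CTRL value was several times the highest EXP value, and the log2 fold change was -2.84 ± 0.83 (adjusted p = 0.0283). Refitting without 1 day 2 library at a time lost this call in 4 of 6 cases, with adjusted p from 0.0507 to 0.118. On day 4 CTRL held 6.19, 18.9, 46.7 and 69.8 CPM and EXP 1.69, 2.05 and 3.71. The spread within CTRL was wide, the top values being the CTRL libraries on the high side of the split, yet the lowest CTRL library was above all EXP libraries; the log2 fold change was -3.84 ± 0.83 (adjusted p = 0.00422), and -2.35 (adjusted p = 0.0686) without the high-side libraries. On day 1 Wnt11 did not pass (-0.21 ± 0.62, adjusted p = 0.834).

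Wnt2 changed in opposite directions. On day 1 it held 4.16, 4.15, 5.55 and 7.78 CPM in CTRL and 1.01, 2.06, 1.27, 0.350 and 0 in EXP. All EXP libraries were below CTRL, and Wnt2 fell by 2.53 ± 0.75 (adjusted p = 0.0156). By day 4 the order was the reverse, with 2.66, 1.29, 1.89 and 2.12 CPM in CTRL and 12.8, 49.5 and 12.9 in EXP. The EXP libraries were all above CTRL and EXP 2 stood far above the others, and the rise of 3.65 ± 0.85 (adjusted p = 0.00615) was 2.67 (adjusted p = 0.0547) without EXP 2. Without the high-side libraries the day 4 difference was 3.66 (adjusted p = 0.121) and the day 1 difference -3.84 (adjusted p = 0.151). On day 2 the EXP libraries reached 0.433 to 3.49 CPM and the CTRL libraries 0 to 0.784, with a log2 difference of 2.50 ± 1.04 (adjusted p = 0.119).

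Of the other ligands, Wnt9a rose on day 4 from 10.1 ± 2.66 CPM (SD, n = 4) to 22.6 ± 11.5 (n = 3), a log2 difference of 1.16 ± 0.34 (adjusted p = 0.0195), with overlapping libraries. The call was lost without EXP 2 (0.67, adjusted p = 0.216), without CTRL 1 (0.99, 0.0529) and without the high-side libraries (1.40, 0.0810). Wnt4 and Wnt5b were called on no day, Wnt5b coming nearest on day 4 at -1.37 ± 0.51 (adjusted p = 0.0588). The genes of ligand release moved apart on day 1. Porcn, the acyltransferase that lipidates Wnt proteins, held 18.5, 15.9, 12.8 and 15.7 CPM in CTRL and 35.2, 24.1, 36.4, 22.3 and 32.7 in EXP. EXP lay wholly above CTRL, and Porcn rose by 0.94 ± 0.19 (adjusted p = 0.00113). On day 2 it held 13.4, 13.1 and 16.1 CPM in CTRL and 45.7, 37.0 and 39.6 in EXP, a clear gap and a rise of 1.52 ± 0.23 (adjusted p = 0.000429). That day 2 call of Porcn was kept under every setting tried, whereas the day 1 call became 0.88 (adjusted p = 0.0563) within the high side of the split and 0.95 (adjusted p = 0.0887) without it. On day 4 the difference was 0.49 ± 0.21 (adjusted p = 0.101).

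Wls, the membrane protein that escorts Wnt ligands to the surface, fell on day 1. Its CTRL libraries held 166, 242, 186 and 219 CPM and its EXP libraries 116, 109.8, 114, 129 and 138. The EXP libraries were tightly grouped below all CTRL libraries, and the log2 difference was -0.74 ± 0.14 (adjusted p = 0.000717), with -0.84 (adjusted p = 0.0409) among the high-side libraries alone and -0.79 (adjusted p = 0.0946) without them. On days 2 and 4 Wls did not pass, at -0.25 ± 0.18 and -0.30 ± 0.17 (adjusted p = 0.386 and 0.205), and these 2 differences turned positive when libraries were scaled by their totals.

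Among the Frizzled receptors, Fzd1 held 59.9% to 72.2% of the summed level per kilobase in the 6 groups. It fell on day 1, from 90.4 ± 30.5 CPM (SD, n = 4) to 50.7 ± 14.9 (n = 5), by 0.83 ± 0.27 on the log2 scale (adjusted p = 0.0266), and Fzd2 fell with it by 1.45 ± 0.38 (adjusted p = 0.00713), both with overlapping libraries. Without the high-side libraries Fzd1 was at -0.50 (adjusted p = 0.546) and Fzd2 at -1.65 (adjusted p = 0.0692). The call of Fzd1 was also lost in 5 of 9 fits without 1 library (from 0.0586 to 0.124), and that of Fzd2 in none. Neither was called on day 2 or 4. Fzd3, Fzd7 and Fzd8 were called on no day.

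Fzd4, a Frizzled that also serves as receptor for the non-Wnt ligand norrin, was called on all 3 days but not in the same direction. On day 1 CTRL held 16.7, 6.27, 30.9 and 7.43 CPM and EXP 4.16, 11.6, 8.21, 3.47 and 2.70. The groups overlapped, the highest value being CTRL 3, and the fall of 1.35 ± 0.50 (adjusted p = 0.0487) became -0.75 (adjusted p = 0.283) without CTRL 3. The day 1 call of Fzd4 was lost in 6 of 9 fits without 1 library (adjusted p from 0.0545 to 0.283), and without the high-side libraries the value was -0.64 (adjusted p = 0.659). On day 2 Fzd4 held 1.29, 2.46 and 1.71 CPM in CTRL and 12.4, 6.22 and 24.9 in EXP. No EXP library came near CTRL, and the rise of 3.00 ± 0.67 (adjusted p = 0.00649) was kept under every setting tried. By day 4 the CTRL libraries held 9.48, 6.26, 6.33 and 3.12 CPM and EXP 34.2, 19.1 and 22.1, again without overlap. The day 4 rise of 2.00 ± 0.57 (adjusted p = 0.0178) was 1.77 (adjusted p = 0.0526) without CTRL 4, 1.71 (adjusted p = 0.0894) without EXP 1 and 1.67 (adjusted p = 0.0973) without the high-side libraries. The share of Fzd4 in the summed Frizzled level went from 1.60% ± 0.77 in day 2 CTRL to 10.8% ± 5.2 in day 2 EXP, and from 4.31% ± 1.84 to 18.7% ± 0.84 on day 4.

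Fzd5 and Fzd6, both low, moved the other way. Fzd5 held 3.39, 4.86 and 3.37 CPM in CTRL and 0.693, 2.08 and 1.40 in EXP on day 2, and 3.48, 3.35, 4.65 and 5.58 against 2.33, 2.05 and 1.00 on day 4. On both days the groups did not overlap, but the gap was smaller than the range within either group. Fzd5 fell by 1.47 ± 0.44 (adjusted p = 0.0311) and 1.24 ± 0.41 (adjusted p = 0.0362). Leaving out a library ended the call in 4 of 6 fits on day 2 (adjusted p from 0.0536 to 0.169) and 5 of 7 on day 4 (from 0.0600 to 0.119), and without the high-side libraries the day 4 value was -0.93 (adjusted p = 0.232). Fzd6 held 1.34, 2.35 and 2.61 CPM in CTRL and 0.693, 1.18 and 0.645 in EXP on day 2, without overlap. Its fall of 1.32 ± 0.39 (adjusted p = 0.0299) was lost in 4 of 6 fits (from 0.0980 to 0.138).

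Ror2, a receptor tyrosine kinase that binds Wnt5a, was lower on all 3 days and called on days 1 and 4. On day 1 CTRL held 45.1, 63.3, 43.6 and 30.7 CPM and EXP 33.0, 12.7, 16.0, 15.0 and 18.4. EXP 1 alone reached into the CTRL range, and the fall of 1.26 ± 0.43 (adjusted p = 0.0333) was lost in 7 of 9 fits without 1 library (adjusted p from 0.0564 to 0.0993) and was -0.90 (adjusted p = 0.384) without the high-side libraries. On day 4 CTRL held 13.9, 20.9, 70.6 and 51.8 CPM and EXP 5.15, 5.38 and 10.5. All EXP libraries were below CTRL, and the higher CTRL values were again those on the high side of the split. The day 4 fall of 2.49 ± 0.54 (adjusted p = 0.00407) was kept without any 1 library and was -1.32 (adjusted p = 0.0899) without the high-side libraries. The related receptor Ror1, the receptor Ryk and the co-receptors Lrp5 and Lrp6 were called on no day. For Lrp6 the 95% intervals of the log2 difference were -0.28 to 0.45, -0.50 to 0.38 and -0.44 to 0.39 on days 1, 2 and 4, the group means lying between 16.8 and 18.6 CPM.

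The Sfrp genes encode secreted Frizzled-like proteins that bind Wnt ligands. Their summed level per kilobase was 2.39 ± 0.69 (SD, n = 3) in day 2 CTRL and 24.7 ± 9.64 (n = 3) in day 2 EXP, and 11.7 ± 2.55 (n = 4) against 106.4 ± 79.9 (n = 3) on day 4. On day 1 it was 26.2 ± 8.10 (n = 4) in CTRL and 17.5 ± 13.3 (n = 5) in EXP.

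Sfrp1 was called higher on days 1 and 2. On day 1 CTRL held 14.3, 11.9, 15.2 and 9.01 CPM and EXP 43.9, 26.5, 53.2, 19.3 and 17.6. The groups did not overlap, though EXP spread widely, and the rise of 1.35 ± 0.48 (adjusted p = 0.0408) was lost in 6 of 9 fits without 1 library (adjusted p from 0.0632 to 0.107) and was 1.31 (adjusted p = 0.0172) within the high side of the split and 1.74 (adjusted p = 0.368) without it. On day 2 CTRL held 5.13, 7.31 and 5.03 CPM and EXP 31.0, 19.1 and 28.1. The gap was wide, with a rise of 2.16 ± 0.60 (adjusted p = 0.0213), lost in 5 of 6 fits (from 0.0538 to 0.0802). Day 4 gave 1.41 ± 0.52 (adjusted p = 0.0581), with EXP libraries from 11.2 to 92.9 CPM.

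Sfrp2 held 0.846, 0.993 and 0.225 CPM in the CTRL libraries of day 2 and 3.33, 14.2 and 21.7 CPM in EXP. Each EXP library exceeded all CTRL libraries, and the rise was 4.26 ± 1.29 (adjusted p = 0.0348), lost in 5 of 6 fits without 1 library (from 0.0574 to 0.127). From day 1 to day 2 Sfrp2 was at -3.89 ± 1.25 within CTRL and 1.82 ± 0.93 within EXP (edgeR adjusted p = 0.18 and 0.30). On day 4 Sfrp2 held 5.32, 4.12, 19.8 and 5.28 CPM in CTRL and 320.5, 74.7 and 6.50 in EXP. The EXP libraries disagreed: EXP 1 was far above the rest and EXP 3 lay below CTRL 3. The rise of 3.95 ± 1.03 (adjusted p = 0.0121) was 2.23 (adjusted p = 0.158) without EXP 1, and 4.81 (adjusted p = 0.0756) without the high-side libraries, CTRL 3 among them.

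Sfrp4 held 5.53, 2.30 and 1.44 CPM in day 2 CTRL and 46.8, 31.1 and 80.5 in day 2 EXP. The groups were far apart, with a rise of 4.10 ± 1.14 (adjusted p = 0.0227), lost in 4 of 6 fits without 1 library (from 0.0575 to 0.0962). From day 1 to day 2 Sfrp4 was at -4.65 ± 1.15 within CTRL and 0.59 ± 0.87 within EXP (edgeR adjusted p = 0.0799 and 0.781). On day 4 it held 22.6, 14.5, 11.0 and 14.9 CPM in CTRL and 39.5, 317 and 64.9 in EXP. All EXP libraries were higher and EXP 2 highest by far; the rise of 3.16 ± 0.96 (adjusted p = 0.0248) was 1.72 (adjusted p = 0.244) without EXP 2 and was also lost without CTRL 2, 3 or 4 (3.12, 3.02 and 3.13, adjusted p = 0.0509, 0.0650 and 0.0586). Without both high-side libraries, CTRL 3 and 4, it was 2.92 (adjusted p = 0.106). Sfrp4 was not called on day 1, when EXP 2 stood at 111 CPM and EXP 5 at 2.19.

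**Figure D3:**
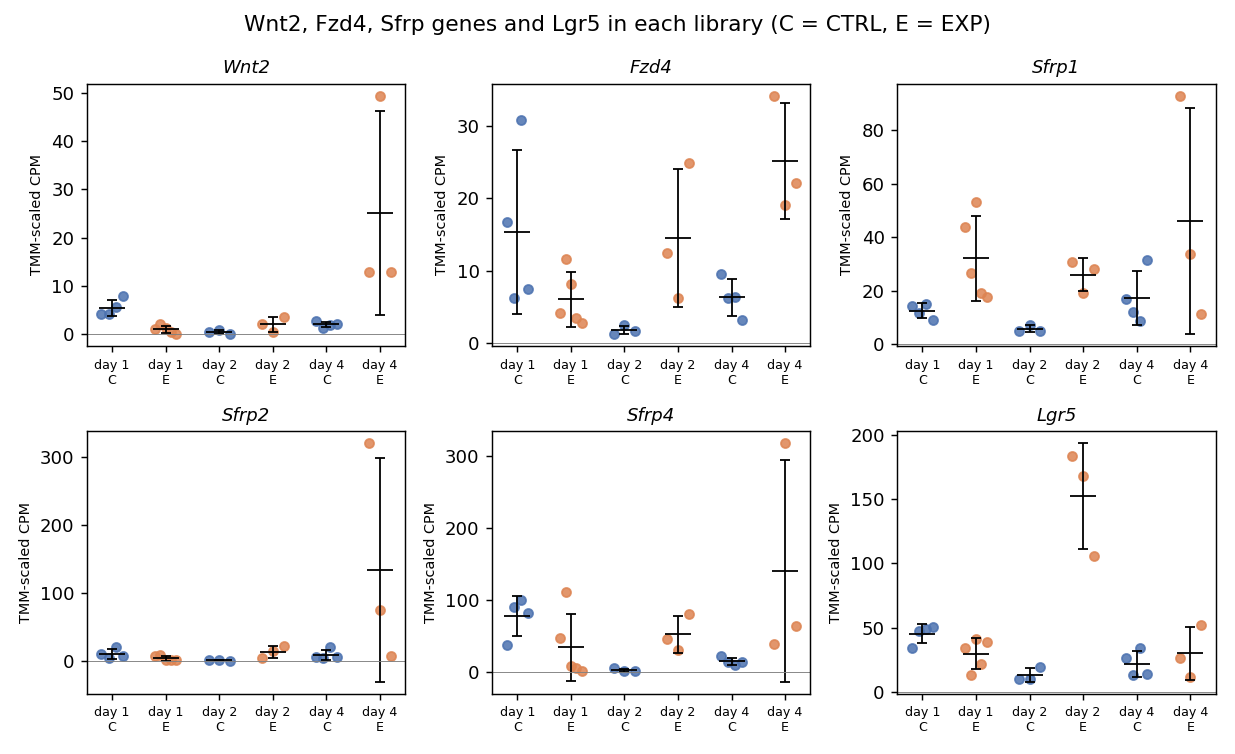
TMM-scaled CPM of Wnt2, Fzd4, Sfrp1, Sfrp2, Sfrp4 and Lgr5 in each library of the 6 groups; points are libraries, bars the mean and SD. Lgr5 stands at 106 to 184 CPM in the day 2 EXP libraries and at most 52.0 elsewhere, and single day 4 EXP libraries carry the highest Wnt2, Sfrp2 and Sfrp4 values.

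Adipocyte markers moved with these genes. The summed level of 8 such markers (Adipoq, Plin1, Cidec, Cfd, Lep, Fabp4, Pparg and Retn) ran from 3.47 to 34.2 CPM of the library totals in day 1 CTRL and from 1.74 to 15.2 in day 1 EXP, from 0.718 to 3.40 and from 12.1 to 118.9 on day 2, and from 2.03 to 3.42 and from 63.2 to 482 on day 4. Of the 7 tested, none was called on day 1, 3 rose on day 2 and all 7 on day 4, and 3 of the 8, Plin1, Lep and Retn, were at 0 in every CTRL library of days 2 and 4. Within day 4 EXP the adipocyte markers were highest in EXP 3, Sfrp2 and Fzd4 in EXP 1, and Wnt2 and Sfrp4 in EXP 2. Within day 2 EXP these markers were highest in EXP 1, and Wnt2, Fzd4, Sfrp2 and Sfrp4 in EXP 3. Within day 1 EXP the adipocyte markers, Wnt2, Fzd4, Sfrp2 and Sfrp4 were each highest in EXP 2. The summed level of 9 endothelial markers also went from 3.53 to 10.5 CPM in day 4 CTRL to 23.2 to 59.9 in day 4 EXP, with 2 of 8 tested called higher, and from 0.439 to 0.699 to 2.39 to 8.94 on day 2. The part of these markers in the Wnt2, Fzd4, Sfrp2 and Sfrp4 results was not tested.

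The pericyte and fibroblast marker sums were lower in EXP on days 1 and 2, beside the members that fell. The sum of 9 pericyte and smooth muscle markers ran from 49.9 to 85.01 CPM in CTRL and from 23.7 to 46.6 in EXP on day 1, and from 72.6 to 86.8 and from 38.2 to 61.1 on day 2, without overlap; on day 4 the ranges overlapped (50.1 to 103.5 and 34.5 to 69.9). Of 8 tested, 2, 1 and 0 were called lower on days 1, 2 and 4, and none higher. The 10 fibroblast markers, collagens among them, took 22% to 26.6% of all counts in CTRL and 11.9% to 17.5% in EXP on day 1, 29.5% to 32.9% and 8.98% to 18.5% on day 2, and 24.6% to 30.9% and 11.3% to 26.2% on day 4, with 4, 5 and 3 of them called lower and 1, 1 and 2 higher. The keratinocyte, immune, melanocyte and Schwann, and dermal papilla and sheath sums overlapped between EXP and CTRL on every day. On day 2 the dermal papilla and sheath sum ran from 1076 to 1448 CPM in EXP and from 801 to 1272 in CTRL. The skeletal muscle sum was lower in EXP on day 2 without overlap (1.88 to 2.85 against 5.36 to 6.99 CPM). It overlapped on days 1 and 4. The part of these markers in the members' results was not tested.

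Of the remaining secreted inhibitors, Dkk3 rose on day 2 and Frzb, Dkk2 and Notum fell on day 4. Frzb, a further Frizzled-like inhibitor, held 1.79, 2.36, 4.32 and 1.51 CPM in day 4 CTRL and 0.725, 0.312 and 0.928 in EXP. EXP lay wholly below CTRL, and Frzb fell by 1.92 ± 0.64 (adjusted p = 0.0351), a call lost without CTRL 3 (-1.52, adjusted p = 0.111), EXP 1 (-2.00, 0.0999) or EXP 2 (-1.62, 0.139). Without the high-side libraries Frzb was at -1.66 (adjusted p = 0.0836).

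The Dkk proteins bind Lrp5 and Lrp6, apart from Dkk3, whose place in the pathway is less settled. Dkk3 supplied 73.9% to 92.1% of the summed Dkk level per kilobase in the 6 groups. On day 2 it held 209, 161 and 208 CPM in CTRL and 272, 450.5 and 289 in EXP. The groups did not overlap, and Dkk3 rose by 0.81 ± 0.26 (adjusted p = 0.0465), which was lost in all 6 fits without 1 library (from 0.0628 to 0.216) and was 0.54 without EXP 2. Dkk2 was lower on day 4, with 76.5, 66.5, 131 and 59.5 CPM in CTRL and 8.37, 19.2 and 53.1 in EXP. EXP 3 came close to the lowest CTRL library, and the fall of 1.63 ± 0.50 (adjusted p = 0.0258) was lost without CTRL 3 (-1.33, adjusted p = 0.0774), EXP 1 (-1.20, 0.117) or EXP 2 (-1.47, 0.112). It was -2.58 without EXP 3 and -1.42 (adjusted p = 0.147) without the high-side libraries. Wif1 was called on no day; on day 4 it held 37.0 to 68.6 CPM in CTRL and 4.72 to 38.2 in EXP (-1.29 ± 0.74, adjusted p = 0.223).

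Notum, a secreted enzyme that removes the lipid from Wnt proteins and is itself induced by the pathway, had the most negative member fold change on day 4. Its CTRL libraries held 0.580, 1.54, 5.78 and 3.98 CPM and its EXP libraries 0.0268, 0.0347 and 0.214, the EXP values resting on 1, 1 and 6 counts against 12 to 138 in CTRL. Every EXP library was below CTRL, and the log2 difference was -5.00 ± 1.00 (adjusted p = 0.00232), -3.52 (adjusted p = 0.0679) without the high-side libraries. On day 2 the groups were also apart, at -2.80 ± 0.96 (adjusted p = 0.0557).

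At the membrane, Apcdd1 binds Wnt and Lrp proteins, and Kremen1 takes Lrp6 from the surface together with Dkk proteins. On day 4 Apcdd1 held 58.2, 67.2, 85.8 and 69.7 CPM in CTRL and 3.00, 10.4 and 24.1 in EXP. CTRL was narrow and EXP far below it, and Apcdd1 fell by 2.49 ± 0.66 (adjusted p = 0.0132), with -2.02 (adjusted p = 0.0670) without EXP 1, -2.40 (0.0646) without EXP 2 and -2.33 (0.0885) without the high-side libraries. On days 1 and 2 it was at -1.25 ± 0.53 and -1.70 ± 0.67 (adjusted p = 0.0857 and 0.0980).

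Kremen1 fell on days 2 and 4. On day 2 it held 108, 79.0 and 101 CPM in CTRL and 33.6, 42.1 and 41.2 in EXP. The groups were well apart, with a fall of 1.30 ± 0.40 (adjusted p = 0.0340), although each of the 6 fits without 1 library lost the call (from 0.0538 to 0.142). On day 4 CTRL held 65.6, 89.3, 140.1 and 158 CPM and EXP 20.4, 29.2 and 39.4. The fall of 1.94 ± 0.39 (adjusted p = 0.00250) was kept in all 7 such fits and, with Nkd1, was 1 of only 2 day 4 calls left without the high-side libraries (-1.39, adjusted p = 0.0289).

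The R-spondin axis changed in its ligands and in its receptors. Rspo1 supplied 98.0% to 98.8% of the summed Rspo level per kilobase in the CTRL groups, and that sum was 38.7 ± 6.08, 51.9 ± 4.78 and 47.4 ± 10.8 in CTRL against 21.2 ± 5.20, 9.74 ± 4.40 and 6.75 ± 6.19 in EXP on days 1, 2 and 4. On day 2 Rspo1 held 98.8, 89.6 and 109 CPM in CTRL and 8.35, 24.8 and 19.7 in EXP. The gap was large against the spread, with a fall of 2.50 ± 0.68 (adjusted p = 0.0199), lost without EXP 1 (-2.15, adjusted p = 0.113) or EXP 3 (-2.59, 0.0625). On day 4 CTRL held 68.1, 88.0, 118 and 86.5 CPM and EXP 0.725, 5.35 and 24.5. EXP 1 was almost without Rspo1, and the fall of 3.15 ± 0.68 (adjusted p = 0.00413) was kept without any 1 library. It was -4.88 without EXP 3 and -2.94 (adjusted p = 0.0942) without the high-side libraries. On day 1 the groups were also apart (60.2 to 88.8 CPM against 25.1 to 50.3) but Rspo1 did not pass, at -0.92 ± 0.52 (adjusted p = 0.201).

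Rspo2 stayed at or below 1.82 CPM in every library. On day 1 it held 0.495, 1.53, 0.465 and 1.61 CPM in CTRL and 0.314, 0.404, 0, 0.0637 and 0.0365 in EXP, several of the latter at or under the floor of 3 counts. The groups did not overlap and Rspo2 fell by 2.63 ± 0.71 (adjusted p = 0.00886). Within the high-side libraries the value was -1.22 (adjusted p = 0.335), and without them, with 1 CTRL library left, it was -5.37 (adjusted p = 0.0104). On day 2 CTRL held 0, 0.0522 and 0 CPM and EXP 0.363, 0.315 and 0.379. These are 29 counts over the EXP libraries and 1 over the CTRL libraries, a ratio of 30.2 (95% exact interval 5.01 to 1235, for counting error only), with adjusted p = 0.0348 that was lost in 4 of 6 fits without 1 library (from 0.0698 to 0.120). The fitted log2 value was 4.07 ± 1.25, and 6.22 without CTRL 2, which held the 1 count. Rspo3 was called on no day.

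Of the R-spondin receptors, Lgr5, also known as a marker of stem cells in hair follicle and gut, was higher on day 2 alone. It held 10.2, 9.93 and 19.4 CPM in CTRL and 184, 168 and 106 in EXP. The EXP libraries were far above CTRL, and the difference of 3.53 ± 0.52 (adjusted p = 0.000369) was kept under every setting tried. From day 1 to day 2 Lgr5 was at -1.78 ± 0.47 within CTRL and 2.36 ± 0.42 within EXP (edgeR adjusted p = 0.103 and 0.00370). On days 1 and 4 Lgr5 was at -0.61 ± 0.39 and 0.45 ± 0.44 (adjusted p = 0.254 and 0.492), and the EXP effect differed between the days (interaction, adjusted p = 0.00187). Lgr4 rose on day 4, with 2.52, 3.82, 3.56 and 3.25 CPM in CTRL and 6.87, 6.74 and 6.39 in EXP. Both groups were narrow and apart, and the rise of 1.02 ± 0.25 (adjusted p = 0.00848) was kept without any 1 library, at 1.06 (adjusted p = 0.0734) without the high-side libraries. Znrf3, the ubiquitin ligase that R-spondins neutralise, was called on no day.

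The intracellular feedback inhibitors Nkd1 and Axin2 are textbook readouts of β-catenin signalling. Their promoters, with that of Wnt11, are shown as 3 of the 13 members that fell on day 4, chosen with the results of the motif search known. The sequences are the 250 bases before a RefSeq transcription start in build GRCm38.p6, which differs from the mm39 named for the files, and each is on the plus strand: chr7:98834862-98835111 for Wnt11, chr8:88527383-88527632 for Nkd1 and chr11:108920099-108920348 for Axin2. Capitals mark a TCF/LEF-type motif.
Wnt11: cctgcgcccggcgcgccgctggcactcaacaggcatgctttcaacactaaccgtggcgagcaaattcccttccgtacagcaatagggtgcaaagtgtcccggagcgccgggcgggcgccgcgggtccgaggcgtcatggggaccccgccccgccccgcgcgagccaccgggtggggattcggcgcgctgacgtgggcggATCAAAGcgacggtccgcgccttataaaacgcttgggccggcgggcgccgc
Nkd1: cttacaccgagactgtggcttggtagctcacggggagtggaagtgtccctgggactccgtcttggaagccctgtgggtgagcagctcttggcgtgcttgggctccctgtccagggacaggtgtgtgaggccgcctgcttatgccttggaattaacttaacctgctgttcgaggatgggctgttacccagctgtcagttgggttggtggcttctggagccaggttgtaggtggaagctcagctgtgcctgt
Axin2: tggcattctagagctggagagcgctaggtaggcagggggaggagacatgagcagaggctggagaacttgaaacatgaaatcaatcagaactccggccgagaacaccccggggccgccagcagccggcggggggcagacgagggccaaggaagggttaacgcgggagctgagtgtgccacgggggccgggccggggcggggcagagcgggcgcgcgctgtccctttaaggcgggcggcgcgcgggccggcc
The motif was searched on both strands as CTTTG followed by any pair of letters drawn from A and T, from 250 bases before to 50 after the start. The Wnt11 window shown had 1 match, ATCAAAG, at position -51, the other of the 2 Wnt11 windows had none, and the Nkd1 and Axin2 windows held none. Of the 13 members that fell on day 4, 9 had a window, and the 1 match in Wnt11 was the only one in their 10 windows. Over 29 members with a RefSeq window, 6 of 39 windows (15.4%) held a match, against 16.9% of all 32851 windows of this length. A match is a description of letters, not of binding.

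Nkd1, which binds Dishevelled, fell on days 1 and 4. On day 1 it held 22.3, 32.3, 23.2 and 15.0 CPM in CTRL and 14.7, 4.48, 4.39, 1.75 and 3.14 in EXP. The groups did not overlap, but EXP 1 came within reach of CTRL 4, and the fall of 2.02 ± 0.68 (adjusted p = 0.0310) was lost in 7 of 9 fits without 1 library (from 0.0511 to 0.0757) and was -2.28 (adjusted p = 0.146) without the high-side libraries. For day 4, CTRL held 7.16, 13.4, 84.2 and 36.7 CPM and EXP 0.537, 0.799 and 2.32. CTRL spread widely, with the high-side libraries on top, but every EXP library was lower. The fall of 4.87 ± 0.95 (adjusted p = 0.00236) was kept without any 1 library and without the high-side libraries (-3.09, adjusted p = 0.0310). Day 2 gave -1.92 ± 0.85 (adjusted p = 0.144) with groups apart. Nkd2, its relative, was called on no day, at 77.3 ± 49.2 CPM in day 4 EXP against 124 ± 35.4 in CTRL.

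Axin2, a scaffold of the β-catenin destruction complex, held 3.19, 3.60, 3.19 and 3.33 CPM in day 4 CTRL and 0.215, 0.590 and 1.89 in EXP. The CTRL libraries were almost level and all EXP libraries below them, and Axin2 fell by 1.90 ± 0.54 (adjusted p = 0.0162), with -1.42 (adjusted p = 0.0841) without EXP 1, -1.70 (0.0803) without EXP 2, -3.04 without EXP 3 and -1.94 (0.0742) without the high-side libraries. On days 1 and 2 it was at -0.86 ± 0.44 and -0.92 ± 0.53 (adjusted p = 0.145 and 0.273).

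**Figure D4:**
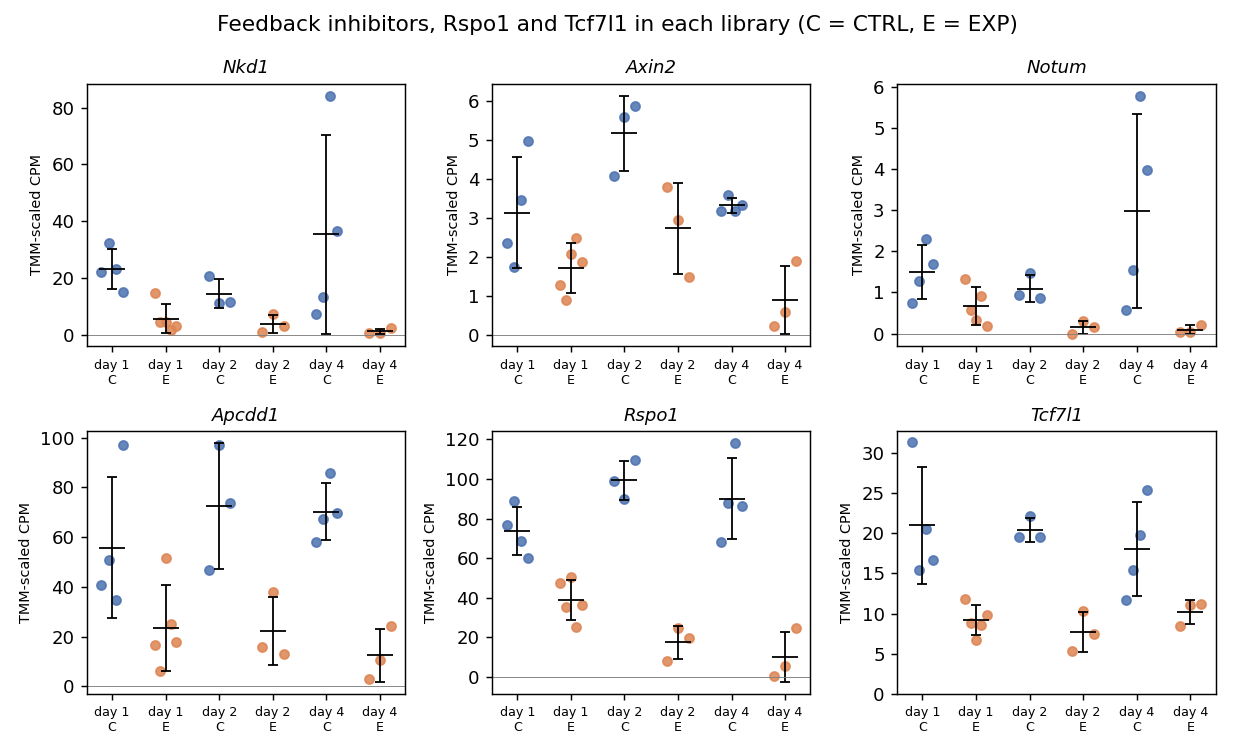
TMM-scaled CPM of Nkd1, Axin2, Notum, Apcdd1, Rspo1 and Tcf7l1 in each library of the 6 groups; points are libraries, bars the mean and SD. On day 4 all EXP points lie below all CTRL points in each of the 6 panels, and for Nkd1 and Notum CTRL 3 and CTRL 4 are the highest.

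β-catenin itself, Ctnnb1, was slightly higher on day 1, from 137 ± 13.1 CPM (SD, n = 4) to 177 ± 17.3 (n = 5), a rise of 0.37 ± 0.13 (adjusted p = 0.0314) with no overlap. It was lost in 4 of 9 fits without 1 library (from 0.0543 to 0.111) and without the high-side libraries (0.37, adjusted p = 0.412). On days 2 and 4 it was at 0.46 ± 0.15 and 0.30 ± 0.14 (adjusted p = 0.0502 and 0.131), again with all EXP libraries above CTRL.

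Tcf7l1 (Tcf3), mostly a repressor of Wnt target genes, fell on each day. On day 1 it held 31.4, 15.4, 20.6 and 16.6 CPM in CTRL and 11.8, 8.85, 6.75, 8.60 and 9.77 in EXP. The groups did not overlap, and the fall was 1.20 ± 0.24 (adjusted p = 0.00103), with -1.16 (adjusted p = 0.0539) within the high side of the split and -0.99 (adjusted p = 0.117) without it. On day 2 CTRL held 19.6, 22.2 and 19.5 CPM and EXP 5.28, 10.3 and 7.47, well apart, a fall of 1.41 ± 0.30 (adjusted p = 0.00457) kept under every setting tried. On day 4 CTRL held 11.7, 15.4, 19.8 and 25.4 CPM and EXP 8.48, 11.1 and 11.1. The lowest CTRL library was barely above EXP, and the fall of 0.82 ± 0.28 (adjusted p = 0.0408) was lost in 5 of 7 fits without 1 library (from 0.0551 to 0.170) and was -0.42 (adjusted p = 0.379) without the high-side libraries. The activator-type factors Lef1 and Tcf7 and the factor Tcf7l2 were called on no day; Tcf7 came nearest on day 4, with 4.28 to 9.91 CPM in CTRL and 0.134 to 4.11 in EXP (-1.88 ± 0.70, adjusted p = 0.0596).

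The split bears on the day 4 calls as a group. Among its low-side libraries alone, 2 CTRL and 3 EXP, no member was called and 1 gene was called in the whole table, while all 19 members kept their direction. With every high-side library left out of the fit, 2 of the 19 day 4 calls, 10 of the 14 day 2 calls and 1 of the 12 day 1 calls (Rspo2) remained, day 1 then having 1 CTRL library. Within the high-side libraries of day 1, 3 CTRL and 2 EXP, 4 of the 12 calls remained (Wnt2, Wls, Fzd2 and Sfrp1). With the split as a covariate, 17 of 19, 14 of 14 and 8 of 12 remained. The part of the split in the day 1 and day 4 results was not tested beyond these fits.

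Over time, 11 members changed within EXP (24.4%, against 14.3% of all genes): Wnt2, Wnt9a, Wnt11, Porcn, Wls, Fzd4, Sfrp2, Kremen1, Rspo2, Lgr5 and Nkd2. Between days 1 and 2 of EXP, Lgr5 rose by 2.36 ± 0.42 (adjusted p = 0.00370) and Wls by 0.77 ± 0.16 (0.00908), with 2.27% of all genes higher on day 2. Between days 1 and 4 of EXP 6 members rose (13.3%, against 12.1% of all genes). They were Sfrp2 (5.19 ± 1.00, adjusted p = 0.00161), Wnt2 (4.74 ± 0.81, 0.000612), Rspo2 (3.19 ± 0.75, 0.00572), Fzd4 (2.06 ± 0.53, 0.0111), Wnt9a (1.97 ± 0.32, 0.000310) and Wls (0.81 ± 0.15, 0.00129). Over the same interval 6 fell (6.87% of all genes did): Notum (-2.85 ± 0.94, adjusted p = 0.0385), Wnt11 (-2.23 ± 0.76, 0.0457), Rspo1 (-1.94 ± 0.63, 0.0370), Ror2 (-1.44 ± 0.50, just under the threshold), Nkd2 (-1.31 ± 0.45, 0.0460) and Kremen1 (-1.23 ± 0.37, 0.0237). From day 2 to day 4 of EXP, Lgr5 fell by 2.35 ± 0.50 (adjusted p = 0.0439; 0.0513% of all genes fell), so that its day 2 level was above those of both other days. Within CTRL no member passed (0.291% of all genes did), 13 members had an unadjusted p under 0.05 (28.9%, against 14.2% of all genes), and DESeq2 called 4. In the single contrast of CTRL day 2 with day 1, however, Fzd4 was lower by 3.07 ± 0.65 on the log2 scale (adjusted p = 0.0490) and Rspo2, with 1 count on day 2, by 5.60 ± 1.19 (0.0466), with 0.216% of all genes lower. The EXP effect differed between days for 7 members (15.6%, against 8.82% of all genes): Wnt2, Fzd4, Sfrp2, Sfrp4, Rspo2, Lgr4 and Lgr5. Wnt2, Fzd4 and Rspo2 were called in opposite directions on different days (1.52% of all genes were).

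Beyond the 47 members, 127 other pathway genes in 9 lists were examined, of which 107 were tested. These lists, like the members, were chosen with earlier results of these data known. On day 1, 9 rose and 18 fell (8.41% and 16.8%, against 13.9% and 14.7% of all genes), on day 2, 5 and 10 (4.67% and 9.35%, against 7.72% and 5.71%), and on day 4, 11 and 24 (10.3% and 22.4%, against 12.8% and 9.66%). The shares called either way on days 1 and 2 (25.2% and 14%) were near those of all genes (28.6% and 13.4%), and the counts of single lists below, of 4 to 19 tested genes, are to be read against the same shares. The lists together had medians of -0.12, -0.29 and -0.40 beside 0.02, 0.02 and 0.03 over all genes. The further receptors and co-receptors had no riser and 3, 2 and 3 falls among 10 tested on days 1, 2 and 4. Reck, a co-receptor for particular Wnt ligands, fell from 188 ± 40.0 CPM to 43.2 ± 19.9 on day 4 (log2 -2.12 ± 0.34, adjusted p = 0.000476) and was called on every day; Lrp4 fell on day 4 alone (-1.68 ± 0.35, adjusted p = 0.00300). Among 8 tested secreted modulators Igfbp4, an insulin-like growth factor binding protein, rose on days 2 and 4 (2.36 ± 0.61 and 2.47 ± 0.55, adjusted p = 0.0147 and 0.00480), and Trabd2b, a protease that cleaves Wnt proteins, fell on each day (-1.61 ± 0.36 on day 4, adjusted p = 0.00426). Of the 4 tested ligands outside the 47, Wnt6 fell on day 4 (-3.63 ± 0.90, adjusted p = 0.00836) and Wnt10a was called on no day.

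Inside the cell, the destruction complex had 3 risers and 3 falls among 16 on day 1, 1 fall on day 2 and 3 on day 4. Apc2 fell on day 1 (-2.88 ± 0.51, adjusted p = 0.000326) and Gsk3a on days 2 and 4 (-1.31 ± 0.32 and -0.87 ± 0.30, adjusted p = 0.0107 and 0.0424). Of 11 tested Dishevelled regulators none rose and 1, 2 and 2 fell. Cxxc5, an inhibitor that binds Dishevelled, fell on all 3 days (-1.49 ± 0.18, -1.32 ± 0.22 and -0.96 ± 0.21, adjusted p = 1.33e-05, 0.000842 and 0.00399), and Frat1 fell on day 4 (-2.72 ± 0.70, adjusted p = 0.0102). Among 15 tested nuclear cofactors Cby1, which binds β-catenin, fell on day 1 (-1.26 ± 0.15, adjusted p = 1.23e-05), and Sox9 rose on day 4 (2.35 ± 0.51, adjusted p = 0.00389).

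In the branches without β-catenin, 1 of 11 tested polarity genes rose and 3 fell on days 1 and 4, Vangl1 on both (-1.63 ± 0.32 and -1.52 ± 0.38, adjusted p = 0.000810 and 0.00872) and Invs on day 1 (-1.69 ± 0.29, adjusted p = 0.000257). Of 13 calcium-branch genes 3 rose and 3 fell on day 4, among the latter Prkca and Nfatc2 (-1.27 ± 0.32 and -1.34 ± 0.40, adjusted p = 0.00939 and 0.0212). The 19 tested further target genes gave 4 risers on each day and 2, 2 and 6 falls. Cd44, the hyaluronan receptor, rose on all 3 days (1.37 ± 0.17, 1.11 ± 0.20 and 0.81 ± 0.19, adjusted p = 1.52e-05, 0.00142 and 0.00535), as did Fst, which binds activin (1.86 ± 0.26, 1.39 ± 0.30 and 0.80 ± 0.28, adjusted p = 3.70e-05, 0.00502 and 0.0408).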

How the data were processed

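The authors deposited 1 table of whole read counts per gene for 22 libraries in 6 groups. Per the submitters' processing notes, Trimmomatic and the mouse build mm39 were used, and the labels' protocols describe RNeasy Micro extraction and ultra-low input libraries with paired reads; the aligner, counter, annotation release and strand setting are not given in the sources used here. Of 55414 gene identifiers, 52081 matched a symbol in GENCODE release M21, including all 47 members, and exon lengths come from that release, whose build differs from mm39.

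Counts were analysed with edgeR 4.0.16 in R 4.3.3. Genes were kept by filterByExpr with a minimum count of 10 (17554 genes), scaled by TMM and fitted with 1 mean per group over all 22 libraries and a robust quasi-likelihood dispersion (16 residual degrees of freedom). Each day's EXP and CTRL groups were compared by F-test, and the same test was used for the interaction of EXP with day and for time within EXP and within CTRL. Standard errors are the absolute log2 fold change over the square root of F. The script was tested on simulated counts.

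The members and gene lists were chosen with earlier results of these data known. Library values are given for members called on some day with at least 1 CPM in a group and no overlap of libraries that day, limited to the 25 with the smallest p of 26 that passed (Ctnnb1 is given by group means). Of each other pathway list, the 2 genes with the smallest p are named. Marker sums are CPM of library totals. Promoters are RefSeq windows of 300 bases in GRCm38.p6. Alternatives were DESeq2 1.42.0, its size factors, library totals, no filter, limma 3.58.1 voom with quality weights, each day fitted alone, a replicate block, the library split, and each library left out. Leaving out all high-side libraries was added after seeing the data. Intervals of counts cover counting error only.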

Additional observations from a re-analysis of the deposited data

Results flagged for a closer look

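In 6 of 75 sets of 4 or 5 libraries examined for the members with library values, 1 library lay apart from the others of its group by Dixon's criterion; chance gives about 1 in 20, or 3.75 of 75. EXP 1 of day 1 was the highest for Wnt11 (26.9 CPM, the others 5.29 to 11.1), Ror2 (33.0, others 12.7 to 18.4) and Nkd1 (14.7, others 1.75 to 4.48). CTRL 4 of day 1 was the lowest for Wnt11 (6.40 CPM, others 15.1 to 16.4). CTRL 3 of day 4 was the highest for Sfrp2 (19.8 CPM, others 4.12 to 5.32), and EXP 3 of day 1 the highest for Lgr4 (7.05 CPM, others 4.01 to 4.68). EXP 1 of day 1 and CTRL 3 of day 4 belong to the high-side libraries and CTRL 4 and EXP 3 of day 1 to the low-side ones, and the part of the split in these values was not tested.

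The difference between EXP and CTRL changed with the day for 7 members in edgeR's joint interaction test, with adjusted p = 0.00460 for Wnt2, 0.00447 for Fzd4, 0.0198 for Sfrp2, 0.0264 for Sfrp4, 0.0106 for Rspo2, 0.0267 for Lgr4 and 0.00187 for Lgr5. Leaving out 1 library at a time gave between 5 and 13 such members, and leaving out all high-side libraries gave 1.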

How the results depend on the processing

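Of 41 calls of a named member on a day, 4 were kept under every setting (Porcn, Fzd4, Lgr5 and Tcf7l1 on day 2), 37 were lost in at least 1, and none reversed; 207 of the 699 alternative values of these calls missed the threshold. DESeq2 gave 12 members with an effect differing between days, 4 changing within CTRL and 17 within EXP. Scaling by library totals gave 4632 genes and 3 lower members on day 2 and 2 members within CTRL. Without the filter there was 1 higher member on day 1, 5 higher and 2 lower on day 2, 4 differing between days, 1 within CTRL and 7 within EXP. With voom there were 14 lower members on day 1, 4567 genes and 13 lower members on day 2, and 4 within CTRL. Day 4 fitted alone gave 1128 genes, 3 higher and 6 lower members. Within the high side of the split day 1 gave 2210 genes and 1 higher member; within the low side day 4 gave 1 gene, 0 higher and 0 lower members. Without high-side libraries, day 1 gave 697 genes, 0 higher and 1 lower, day 2 gave 5 higher, day 4 gave 1083 genes, 0 higher and 2 lower, and 1 member differed between days. The cause was not tested, and the last fits also held fewer libraries.

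With the replicate number as a block, 5 members were higher on day 2, 3 differed between days and 7 changed within EXP. Correlations of same-numbered deviations ran from -0.07 to 0.16, from -0.06 to 0.00 and from 0.08 to 0.15 on days 1, 2 and 4. Those of different-numbered deviations ran from -0.28 to 0.12, from -0.03 to 0.04 and from -0.16 to 0.10. Whether equal numbers pair the libraries was not settled by these values. Leaving out each library in turn gave 4024 to 4830 genes, 1 to 3 higher and 5 to 10 lower members on day 1, 891 to 2177, 3 to 7 and 1 to 6 on day 2, and 1633 to 5011, 3 to 7 and 7 to 14 on day 4, with 5 to 13 members differing between days and 5 to 17 changing within EXP.

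Differences that missed the threshold and changed sign were, by library totals, Dkk3 and Kremen1 on day 1 (0.0170 and 0.0082), Wls, Dkk2 and Lgr4 on day 2 (0.22, 0.24 and 0.0557) and Wls on day 4 (0.0133). With the split as covariate they were Wnt11 and Kremen1 on day 1 (0.28 and 0.0801), and within its high side Wnt11, Sfrp4 and Kremen1 on day 1 (0.23, 0.0389 and 0.0674). Without high-side libraries Wnt11 was at 0.0652 and Frzb at -0.68 on day 1. Without EXP 3, Dkk3 and Lgr5 on day 4 were at -0.19 and -0.22, and their highest values without 1 library were 0.33 and 0.81. Depth limits Rspo2, Notum and Dkk1, which rest on few counts.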
